A study of Mus musculus with 3 samples.

Results

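The centromere protein genes described here are the 10 genes Cenpa, Cenpe, Cenpf, Cenph, Cenpi, Cenpk, Cenpl, Cenpm, Cenpn and Cenpp, taken by their symbols in the platform annotation. All 10 of the 10 had a probe, and together they had 14 probes of the 26423 on the array and made up 10 of 19084 named genes. RNA was taken from Ymac-1, a cell line grown out of a liver tumor of a Gnmt-/- mouse and kept in culture, from a liver tumor (HCC) of a female Gnmt-/- mouse, and from liver tissue of a female wild type mouse. Gnmt encodes glycine N-methyltransferase, and mice without it develop liver tumors. The Gnmt-/- genotype of the HCC sample is that of the animal, so the other cells of the tumor carry it too. The sex and age of the source of the line are not in its label, and age is not labelled for either tissue. Each condition had 1 Mouse Whole Genome OneArray read in Cy5, so no difference below has a replicate check, an error or a P value. For the array data of both tissues the paper cites an earlier study. Whether the arrays were run together is not known, so the comparisons of line with tissue may also compare studies or runs. The part of study or run in these differences was not tested.

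Centromere proteins build the kinetochore, the structure that ties each chromosome to the spindle. CENP-A replaces histone H3 in the nucleosomes of the centromere, and a set of inner proteins, the constitutive centromere-associated network (CCAN), sits on these nucleosomes through the whole cell cycle. During mitosis the inner layer carries the microtubule-binding outer kinetochore, to which CENP-E and CENP-F are recruited. Many of these genes are transcribed most in cells that are about to divide, and hepatocytes of the adult liver rarely divide.

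Values are linear intensities as deposited. Any reading below 50 was raised to 50, called the floor here, before taking log2. A log2 difference of 1 or more in either direction is the threshold for calling a gene higher or lower, and where the dimmer array did not exceed the floor the fold is given as a lower bound. Probes differ in how brightly they read, so a level is compared only across arrays for the same probe. Gnmt, the disrupted gene, read 56.1 in Ymac-1, 15.6 in HCC and 3583 in normal liver, which sets both Gnmt-/- samples apart from liver in the direction of their labels. Whether its probe lies within the disrupted stretch is not known, so this check of the labels is limited. Over the 7687 genes that exceeded the floor everywhere, log2 readings differed at the median by 0.06 between Ymac-1 and HCC, by 0.65 between HCC and normal liver and by 0.72 between Ymac-1 and normal liver, so the liver array was the dimmest of the 3. The 7 measured hepatocyte markers of 8 listed summed to 422 in Ymac-1, 246624 in HCC and 172771 in normal liver, and 5 of them, Alb among them, did not exceed the floor in Ymac-1. These markers that define hepatocytes were thus under the floor or low in the line. Fewer cells of a type and less RNA per cell cannot be told apart in such bulk samples.

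To show the start regions of genes that read differently, 4 promoter stretches are printed, each with 100 bases before and 50 bases after the annotated start (RefSeq, GRCm38.p6). Cenpa was higher in the line than in the tumor and, as deposited, in the tumor than in liver, Cenpn and Cenph were above the floor in Ymac-1 alone, and Cenpf was lower in Ymac-1. Capitals mark TTTGAA, the core of the cell cycle homology region (CHR) element of mitotic gene promoters, and CCAAT, the CCAAT box, on either strand. The stretches lie at chr5:30666786-30666935, plus strand, for Cenpa, at chr8:116921640-116921789, plus strand, for Cenpn, at chr13:100775850-100775999, minus strand, for Cenph and at chr1:189688037-189688186, minus strand, for Cenpf.
Cenpa: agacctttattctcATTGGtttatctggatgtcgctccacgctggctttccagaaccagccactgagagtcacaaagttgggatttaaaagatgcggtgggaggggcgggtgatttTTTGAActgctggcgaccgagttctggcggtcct
Cenpn: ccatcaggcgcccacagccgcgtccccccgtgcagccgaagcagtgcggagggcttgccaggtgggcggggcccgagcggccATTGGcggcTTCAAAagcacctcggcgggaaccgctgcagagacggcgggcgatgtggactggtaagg
Cenph: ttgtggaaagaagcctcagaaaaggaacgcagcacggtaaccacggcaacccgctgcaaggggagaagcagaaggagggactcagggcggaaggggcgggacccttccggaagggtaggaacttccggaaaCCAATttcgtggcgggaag
Cenpf: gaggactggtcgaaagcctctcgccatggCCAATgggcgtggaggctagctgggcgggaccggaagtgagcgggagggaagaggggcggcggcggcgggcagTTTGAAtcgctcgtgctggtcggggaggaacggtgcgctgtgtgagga
Over the whole windows of 300 bases, matched by symbol for 10 of 10 members, 4 members (Cenpa, Cenpf, Cenpl and Cenpn) held TTTGAA on either strand, against 20.2% of the 27025 genes with a window. The letters CCAAT were found in 9 of 10 members, all but Cenpp, against 41.1% of genes. Neither motif overlapped the other in these windows. Counting the first transcribed base as 1 and the base before it as -1, TTTGAA began at base 17 in Cenpa and at base 3 in Cenpf, and its reverse complement began at base -9 in Cenpn and at base -162 in Cenpl. Cenpa and Cenpf, which differed in opposite directions between Ymac-1 and HCC, both held both motifs. The variant TTCGAA, which reads the same on both strands, was found in 1 of 10 members, Cenpm, and in 1.80% of genes. The E2F-type letters TTTCCCGC were found in Cenpl and Cenpm (1.24% of genes) and TTTGGCGC in Cenpl (0.585%). TTTCGCGC and TTTGGCGG were found in 0 of 10 members, against 0.374% and 0.625% of genes. Cenpk has 3 annotated starts, so it had 3 windows in which to hold a motif. A match of letters is a description and no measured binding site.

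Expression of the centromere genes differed mainly between the cell line and both tissues. In Ymac-1, 8 of 10 members were higher than in HCC and 2 were lower, against 14.7% of all genes higher and 15.9% lower (20.2% and 11.1% with the array medians made equal). Against normal liver, 8 of 10 were higher in Ymac-1 and 1 was lower, where 23.3% of all genes were higher and 9.41% lower. Between HCC and normal liver, 2 of 10 were higher and 0 lower, where 15.9% of all genes were higher and 0.749% lower, so the share of members called at this step was near that of all genes. All 10 members exceeded the floor on at least 1 array, while many other genes exceeded it on none. Among genes above the floor on an array, the higher and lower shares for Ymac-1 against HCC were 24% and 26%. For Ymac-1 against liver these shares were 38.1% and 15.4%, and for HCC against liver 25.9% and 1.22%. Under the 4 other scalings 2.92% to 5.05% of all genes were higher and 2.55% to 11.6% lower in HCC, with 1 or 2 members higher and 0 or 1 lower, and 14.1% to 16.1% of all genes were higher and 13.9% to 16.2% lower in Ymac-1 than in liver, with 8 members higher and 1 lower. The median log2 difference of the members was 2.89 between Ymac-1 and HCC, 0.15 between HCC and normal liver and 3.06 between Ymac-1 and normal liver, beside medians of 0, 0.02 and 0 over all genes. In these and the list medians a gene with 1 array at the floor enters at its bound, and a gene with both at the floor enters at 0. Above the floor lay 8 of 10 members in Ymac-1, 6 in HCC and 4 in normal liver, and 3 (Cenpa, Cenpk and Cenpl) on all 3 arrays.

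**Figure D1:**
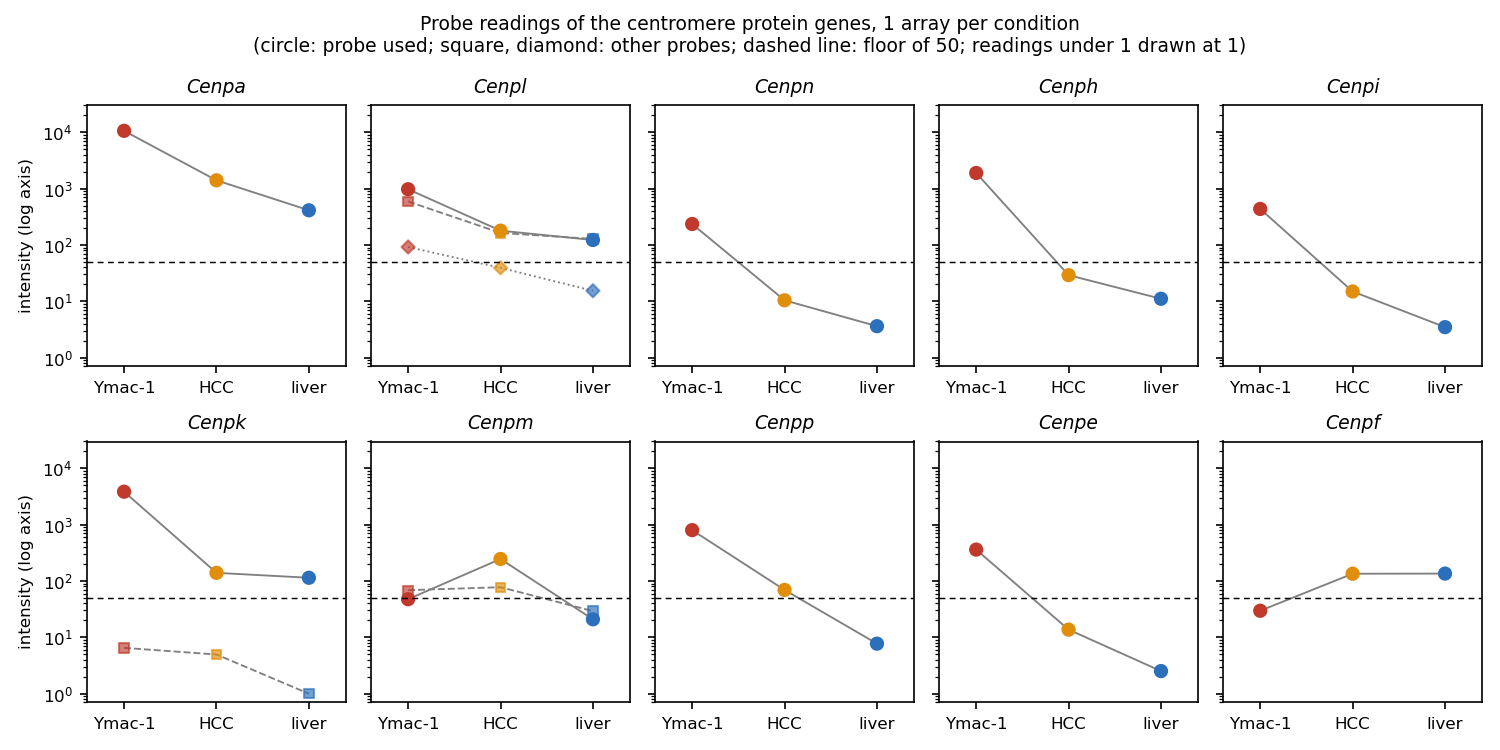
Intensity (log axis) of every probe of the 10 genes in Ymac-1, HCC and normal liver, with 1 point per array, circles for the probe used, squares and diamonds for other probes of the gene, and a dashed line at the floor of 50. 8 genes read highest in Ymac-1, while the Cenpf probe and the brighter Cenpm probe lie under the floor there.

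Cenpa, the histone H3 variant that marks the centromere, read 10646 in Ymac-1, 1408 in HCC and 414 in normal liver. It was the only member higher at both steps as deposited, by 7.56-fold in Ymac-1 over HCC and by 3.40-fold in HCC over normal liver, and between Ymac-1 and liver the fold was 25.7. The step between the tissues depended on the scaling of the arrays. Its log2 difference was 1.77 as deposited, 1.10 after quantile normalization, 0.96 with the upper quartiles of the arrays made equal and 0.48 with their medians made equal, the last 2 under the threshold. H3f3b, which encodes the histone H3.3, read 9268 in Ymac-1, 11676 in HCC and 2929 in normal liver. Its log2 difference was 1.99 between HCC and liver (0.71 to 1.42 under the other scalings). Between Ymac-1 and HCC it was -0.33 (-0.39 to 0.15), where Cenpa was at 2.92 (2.86 to 3.40).

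CENP-N recognizes the CENP-A nucleosome and CENP-L is its partner in the inner kinetochore. Cenpn read 236 in Ymac-1, 10.4 in HCC and 3.63 in normal liver. It was above the floor in the line alone, at least 4.73-fold higher than in either tissue. The Cenpl probe used read 979 in Ymac-1, 179.9 in HCC and 123 in normal liver, and was 5.44-fold higher in the line than in the tumor. Of the other Cenpl probes, the first read 593 in Ymac-1, 164 in HCC and 128 in normal liver, and the second 92.2 in Ymac-1, 39.4 in HCC and 15.4 in normal liver. Their folds of Ymac-1 over HCC were 3.61 and at least 1.84, the second being a bound that does not reach the threshold. Between HCC and liver Cenpl differed by 0.55 on the log2 scale as deposited, within the threshold, and by values between -0.73 and -0.10 under the 4 other scalings.

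CENP-H, CENP-I, CENP-K and CENP-M form a group within the CCAN that links the inner kinetochore to the layers above it. Cenph read 1903 in Ymac-1, 29.2 in HCC and 11.1 in normal liver, at least 38.1-fold higher in the line than in either tissue. It was above the floor in the line alone. Cenpk read 3855 in Ymac-1, 139.8 in HCC and 114 in normal liver, and was 27.6-fold higher in the line than in the tumor and 33.7-fold higher than in liver. Cenpk lay above the floor in both tissues, so these folds are measured and not bounds. The other Cenpk probe read 6.51 in Ymac-1, 4.96 in HCC and -0.93 in normal liver, under the floor on all 3 arrays, so it gave no second measurement. With the probes of a gene averaged after the floor, the log2 difference of Cenpk between Ymac-1 and HCC was 2.39, against 4.79 for the probe used. Cenpi read 437 in Ymac-1, 15.0 in HCC and 3.49 in normal liver, at least 8.75-fold higher in the line than in either tissue. Cenph and Cenpi were at or under the floor in both tissues and Cenpk, though above it, differed between HCC and liver by 0.29 on the log2 scale as deposited and by -0.99 to -0.36 under the 4 other scalings.

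Cenpm was the exception of this group. Its brighter probe read 47.6 in Ymac-1, 246 in HCC and 20.9 in normal liver. It was above the floor in HCC alone, at least 4.93-fold lower in the line than in the tumor, and at least 4.93-fold higher in the tumor than in liver, both bounds being set by the floor. The other Cenpm probe read 68.8 in Ymac-1, 77.7 in HCC and 29.2 in normal liver. By that probe Ymac-1 was 1.13-fold lower than HCC which is within the threshold, and HCC at least 1.55-fold higher than liver, a bound that does not reach it, so both calls of Cenpm rest on 1 of its 2 probes. The transcripts that each probe reads were not analysed here.

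CENP-P belongs to another CCAN group, with CENP-O, CENP-Q and CENP-U. Cenpp read 801 in Ymac-1, 69.5 in HCC and 7.73 in normal liver, above the floor in Ymac-1 and HCC. It was 11.5-fold higher in the line than in the tumor and at least 16.0-fold higher than in liver. Between the tissues it was at least 1.39-fold higher in HCC, a bound that stays under the threshold with the floor of 50 and passes it with a floor of 25, where the log2 difference was 1.48. With the floor of 50 the log2 difference of Cenpp between HCC and liver was 0.48 as deposited. Under the 4 other scalings it lay between -0.17 and 0.20.

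The outer kinetochore members went opposite ways. Cenpe, a kinesin motor that carries chromosomes toward microtubule plus ends, read 361 in Ymac-1, 13.7 in HCC and 2.52 in normal liver, at least 7.23-fold higher in the line than in either tissue. Cenpf, a large coiled-coil protein gene whose product gathers at the outer kinetochore before and during mitosis, read 29.7 in Ymac-1, 135 in HCC and 136 in normal liver. It was under the floor in the line and above it in both tissues, at least 2.70-fold lower in the line than in the tumor and at least 2.71-fold lower than in liver. Cenpf had 1 probe, so no other probe bears on its direction. Its log2 difference of Ymac-1 minus HCC was -1.43 as deposited, between -1.49 and -0.93 over the 4 other scalings, -0.43 with a floor of 100 and 0 with a floor of 200, so the call was lost with the medians made equal and at both higher floors.

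**Figure D2:**
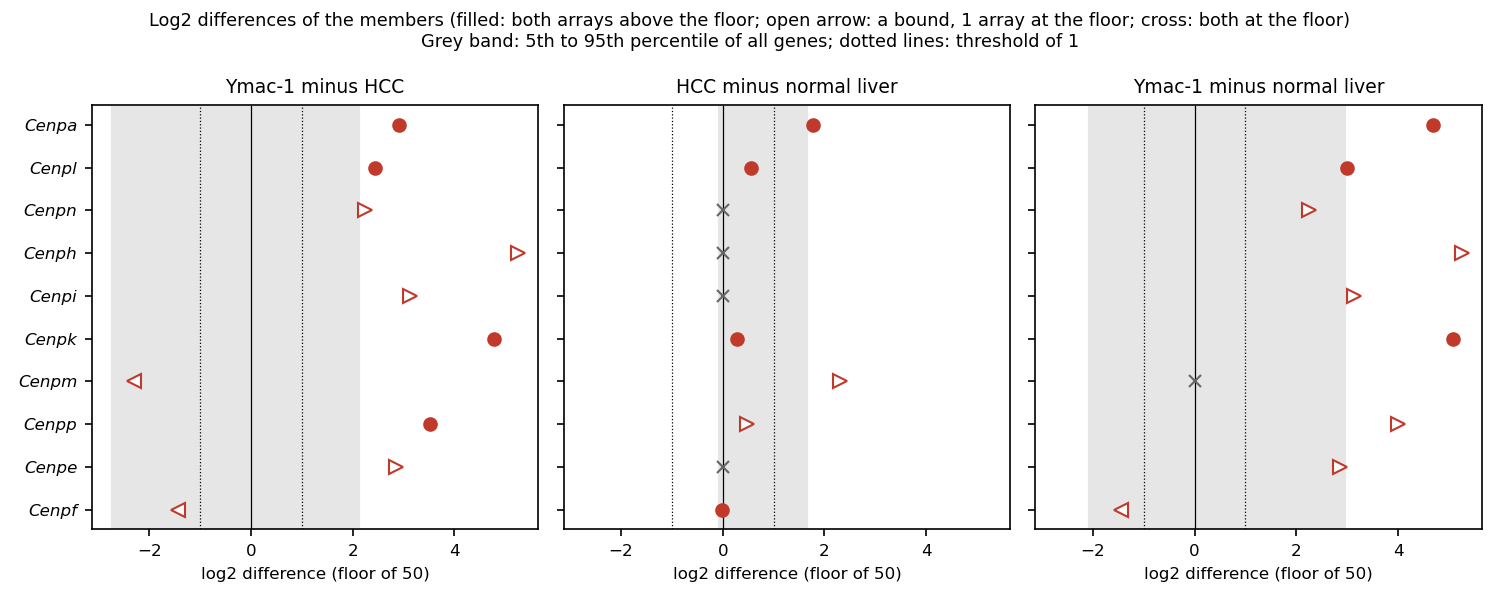
Log2 differences of the 10 genes in 3 panels (Ymac-1 minus HCC, HCC minus normal liver, Ymac-1 minus normal liver), with filled circles where both arrays were above the floor, open arrows for bounds with 1 array at the floor and crosses where both were. The grey band spans the 5th to the 95th percentile of all genes (-2.73 to 2.12, -0.07 to 1.66 and -2.08 to 2.96), and the 8 genes higher in the line than in the tumor lie to the right of the band in that panel.

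**Figure D3:**
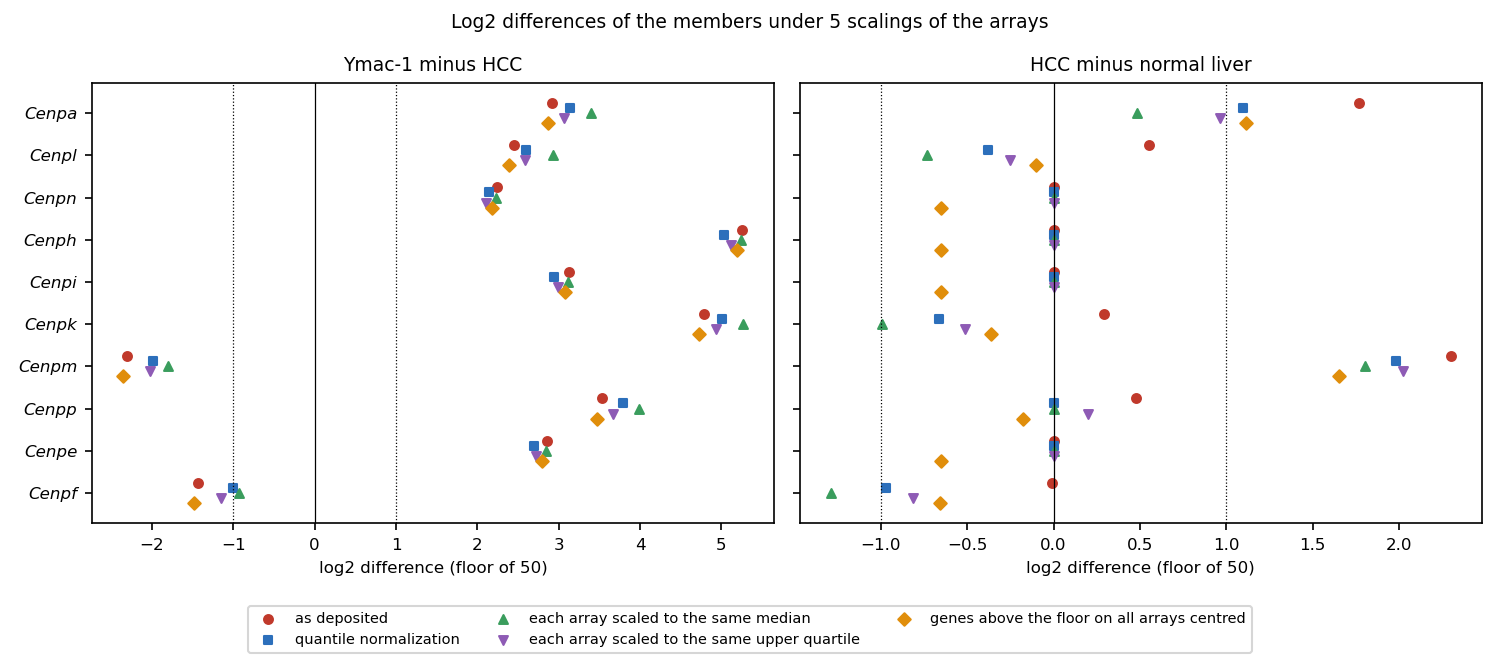
Log2 differences of the 10 genes under 5 scalings of the arrays, with Ymac-1 minus HCC on the left and HCC minus normal liver on the right. In the left panel no gene changes side, and in the right panel Cenpk and Cenpl are above 0 as deposited and below it under the 4 other scalings.

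The other genes of the centromere and kinetochore were counted from 5 lists. Of 49 genes listed 47 had a probe, and 35 of these were higher in the line than in the tumor and 0 lower. Under the 4 other scalings 34 or 35 were higher and 0 or 1 lower. Between HCC and normal liver 15 of 47 were higher and 0 lower as deposited, while under the other scalings 3 to 7 were higher and 0 to 2 lower, so most calls of these genes between the tissues depended on the scaling. The counts by list that follow are as deposited. Over all genes 14.7% were higher in the line than in the tumor and 15.9% higher in HCC than in liver.

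Of the other centromere genes, most of which encode CCAN proteins, 6 of 10 were higher in the line than in the tumor, at a median of 1.93 (log2), and 1 of 10 was higher in HCC than in liver. Cenpq, a partner of CENP-P, read 1194 in Ymac-1, 95.1 in HCC and 70.0 in normal liver. Cenpw, which pairs with CENP-T in a histone-fold dimer, was 10.7-fold higher in the line than in the tumor at 1269 in Ymac-1 against 119 in HCC, with 59.6 in normal liver. At the other end, Cenpx read 196 in Ymac-1, 189.7 in HCC and 108 in normal liver, and Cenpt, which reaches from the chromatin to the outer kinetochore, read 1318 in Ymac-1, 350.5 in HCC and 75.8 in normal liver. Cenpt was the 1 gene of this list past the threshold between HCC and liver, at 4.62-fold as deposited, with a log2 difference between 0.93 and 1.56 under the other scalings. Cenpb, Cenpo and Itgb3bp (CENP-R) were under the floor on all 3 arrays. Of the CENP-named genes kept outside the centromere and kinetochore lists, Cenpj, a centriole gene, read 47.7 in Ymac-1, 50.5 in HCC and 18.6 in normal liver, and Cenpv read 1217 in Ymac-1, 684 in HCC and 584 in normal liver. Neither was past the threshold between Ymac-1 and HCC as deposited, while 1 of the 2 was higher in Ymac-1 with the array medians made equal.

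Genes that load CENP-A were higher in the line than in the tumor in 4 of 5 measured cases, with a median of 1.27. Mis18a, which licenses the centromere for new CENP-A, read 3764 in Ymac-1, 427 in HCC and 130.2 in normal liver, so as deposited it was past the threshold at both steps, as Cenpa was. Between HCC and liver its log2 difference was 0.43 to 1.06 under the other scalings, below the threshold in 3 of 4. Hjurp, the chaperone that deposits CENP-A, read 77.4 in Ymac-1, 80.8 in HCC and 20.2 in normal liver and differed by -0.06 between Ymac-1 and HCC, where Cenpa differed by 2.92. These Hjurp readings lay near or under the floor and come from 1 of its 2 probes. Rbbp4, a histone chaperone, was 3.90-fold higher in the line than in the tumor, and Oip5, of the Mis18 complex, at least 2.41-fold.

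Of the outer KMN network and the Ska complex, which hold the microtubule, 9 of 13 were higher in the line than in the tumor, with a median of 2.73, and 6 of 13 were higher in HCC than in liver. Ska1 read 2914 in Ymac-1, 136 in HCC and 12.3 in normal liver. Ndc80, the main microtubule-binding subunit, read 606 in Ymac-1, 6.44 in HCC and 0.41 in normal liver, above the floor in the line alone. Zwint, which recruits checkpoint proteins, read 219 in Ymac-1, 286 in HCC and 84.2 in normal liver, which is within the threshold between Ymac-1 and HCC. Ska3 was at least 1.59-fold higher in the line than in the tumor, a bound that does not reach the threshold. Nuf2, the partner of Ndc80, was under the floor on all 3 arrays.

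Of the spindle checkpoint and corona genes, which sense chromosomes without attachment, 9 of 12 were higher in the line than in the tumor (median 2.27) and 3 of 12 higher in HCC than in liver. Bub1, a kinase of the checkpoint, read 1826 in Ymac-1, 16.5 in HCC and 3.52 in normal liver, and Ttk (Mps1), the kinase that starts the signal, 1003 in Ymac-1, 23.1 in HCC and 0.10 in normal liver. Both were above the floor in the line alone, as Cenpe was. Mad1l1 differed by 0.46 and Ndel1 by -0.10 between Ymac-1 and HCC. Spdl1 was under the floor on all 3 arrays.

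All 7 genes of the inner centromere list, which corrects attachments and guards cohesion, were higher in the line than in the tumor, with a median of 3.49, and 4 of 7 were higher in HCC than in liver. Cdca8 (Borealin) read 2191 in Ymac-1, 37.9 in HCC and 7.39 in normal liver. Birc5 (Survivin), of the same complex, was 26.0-fold higher in the line than in the tumor. Sgo1, which protects cohesin, and Haspin, a histone H3 kinase, were at least 3.16-fold and at least 4.58-fold higher in the line than in the tumor.

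**Figure D4:**
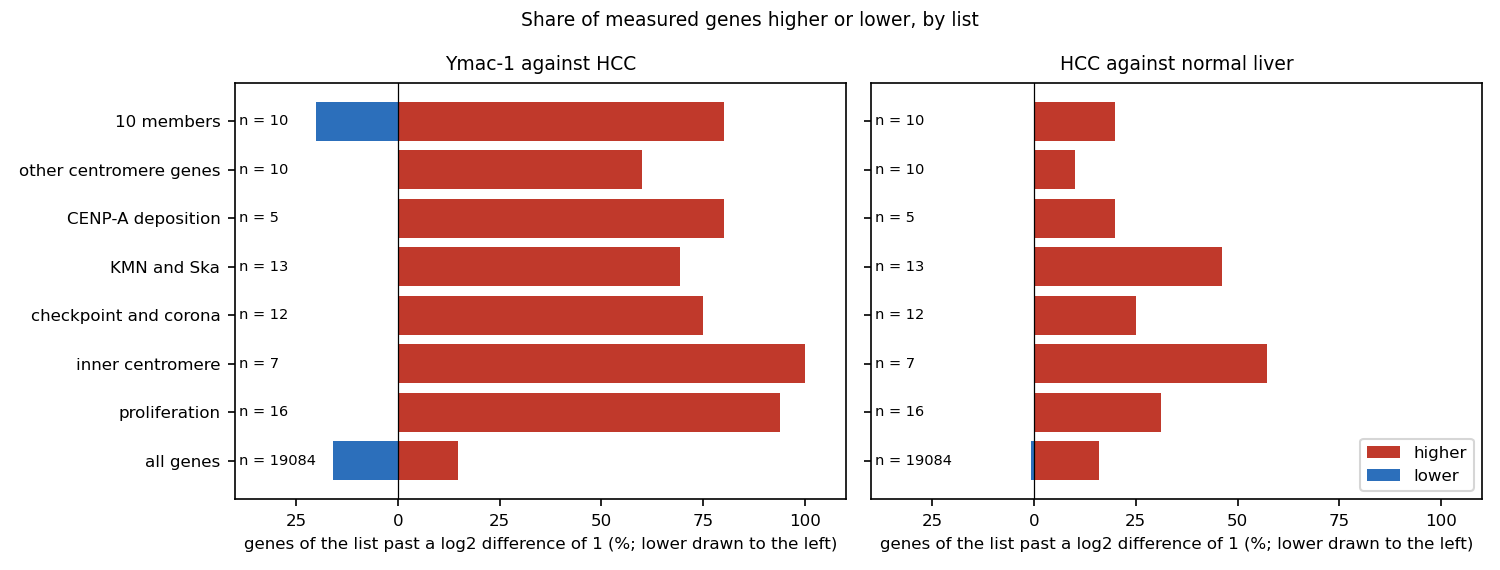
Share of measured genes (%) past a log2 difference of 1 for the 10 members, 5 centromere and kinetochore lists, the proliferation list and all genes, with higher genes to the right of 0 and lower genes to the left. In Ymac-1 against HCC every list shown has 60% or more of its genes higher, all genes 14.7%, and apart from all genes only the members have lower genes.

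Genes of dividing cells moved with the members. Of 16 measured proliferation genes, 15 were higher in the line than in the tumor, with a median log2 difference of 3.60 where the members had 2.89, and 5 of 16 were higher in HCC than in liver, with a median of 0.28 where the members had 0.15. Over all genes 14.7% were higher in the line than in the tumor and 15.9% higher in HCC than in liver. The proliferation counts were 15 and 4 or 5 under the other scalings. Mcm5, of the replicative helicase, read 3345 in Ymac-1, 44.4 in HCC and 26.7 in normal liver, and Top2a, which untangles DNA before division, 4649 in Ymac-1, 148 in HCC and 11.0 in normal liver. Tk1 was 3.37-fold higher in the line than in the tumor and Mybl2 at least 3.16-fold. Cdk1 was under the floor on all 3 arrays, with 49.5 in Ymac-1. Of this list 15 genes lay above the floor in Ymac-1, 8 in HCC and 1 in normal liver, beside 8, 6 and 4 of the 10 members. The part of the proliferating cells in the values of the centromere genes was not tested.

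Markers of other cells moved between the arrays as well. Compared with HCC, Ymac-1 was lower in 5 of 5 markers of endothelium and 5 of 5 of macrophages (4 or 5 under the other scalings), 4 of 5 of stellate cells, 2 of 4 of lymphocytes and 2 of 3 of erythroid cells, while bile duct markers were higher in 3 of 4 cases and lower in 1. Over all genes 15.9% were lower and 14.7% higher in this comparison. Between HCC and normal liver, the calls beside Cenpa and Cenpm were higher in HCC for 1 of 7 hepatocyte, 5 of 5 macrophage, 3 of 5 endothelial, 3 of 5 stellate cell, 2 of 4 bile duct, 1 of 4 lymphocyte and 2 of 3 erythroid markers, and 0 were lower as deposited. Over all genes 15.9% were higher in HCC and 0.749% lower, so the hepatocyte count was near the share of all genes. Under the other scalings the markers higher in HCC were 1 of 5 macrophage, 1 of 5 endothelial, 0 to 2 of 5 stellate cell, 1 of 4 bile duct, 0 of 4 lymphocyte, 0 of 7 hepatocyte and 2 of 3 erythroid markers, and 0 or 1 hepatocyte, endothelial and stellate cell marker each was lower in HCC. The summed readings of the macrophage markers were 845 in Ymac-1, 10958 in HCC and 3880 in normal liver, and those of the erythroid markers 26.6 in Ymac-1, 11715 in HCC and 1124 in normal liver. Bile duct markers summed to 14649 in Ymac-1, 684 in HCC and 159 in normal liver. The endothelial sums were 72.0 in Ymac-1, 4259 in HCC and 1458 in normal liver, the stellate cell sums 99.1 in Ymac-1, 31367 in HCC and 14268 in normal liver, and the lymphocyte sums 158 in Ymac-1, 589.5 in HCC and 288 in normal liver. Dcn made up most of the stellate cell sums, at 90.7 in Ymac-1, 29180 in HCC and 13481 in normal liver. Above the floor in Ymac-1 were 2 of 5 macrophage, 0 of 5 endothelial, 1 of 5 stellate cell, 3 of 4 bile duct, 3 of 4 lymphocyte and 0 of 3 erythroid markers. Of the macrophage markers, Csf1r read 546 in Ymac-1, 1308 in HCC and 469 in normal liver, and Cd68 read 247 in Ymac-1, 1183 in HCC and 160.0 in normal liver, while Adgre1, Cd5l and Clec4f did not exceed the floor in Ymac-1. The part of these cells in the tissue readings of the centromere genes was not tested.

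Outside these lists, the 5 genes that exceeded the floor everywhere and whose 2 log2 differences lay nearest to the medians of the members were Cdh2, Mid1ip1, Gpn3, Prep and Upk1b, at Euclidean distances of 0.04 to 0.15 on the log2 scale among 7658 candidates. Cdh2 read 6257 in Ymac-1, 866 in HCC and 794 in normal liver. This likeness rests on 3 arrays and says only that the 2 log2 differences of each gene lay close to the medians of the members.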

How the data were processed

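RNA was measured on 3 OneArrays, 1 for each of Ymac-1, Gnmt-/- HCC and normal liver. The authors amplified total RNA, labelled it with Cy5 and deposited linear intensities of 26423 probes per array, some below 0. How the scanner was set, how background was removed and how arrays were scaled was not given in the sources used here. Values were used as scaled by the authors. Gene names came from the platform annotation, in which 21876 probes had 1 symbol, 0 several and 4547 none. The Entrez ID of 21825 was found in the GRCm38.p6 gene table. For a gene with several probes, the probe with the greatest mean of log2 over the arrays was used, and all member probes are reported. Readings under 50 were set to 50 before log2. The log2 ratio of 1 is the one the methods state. Their P value was not used, since 1 array per condition gives none, and the number of arrays limits the precision.

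The members and the lists were chosen with earlier results of these data known. Text names every member, the genes with the 2 highest and 2 lowest Ymac-1 minus HCC differences of each list among genes above the floor on an array, and the 5 genes nearest in pattern. List genes under the floor on all arrays, the single genes of the marker lists and the promoters to print were chosen after their values were seen. The calling code was tested on simulated data. Alternatives were 4 scalings, 3 floors, the mean of the probes, a filter on dim genes and 2 thresholds. Counting probes, leaving out Cenpm and rescaling the lists were chosen after seeing the data. The software was Python 3.11.15, pandas 2.3.3, numpy 2.4.6 and matplotlib 3.10.9.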

Additional observations from a re-analysis of the deposited data

How the results depend on the processing

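Against both tissues, the 8 members higher in the line stayed 8 under 4 scalings, at 4-fold, with floor 100 and with averaged probes. A floor of 25, the 1.5-fold threshold and the filter on dim genes also gave 8, but could not lower this count. It was 6 with a floor of 200, where Cenpe (0.85) and Cenpn (0.24) fell under the threshold, and 9 of 14 when probes were counted. Over all genes the share higher in the line than in the tumor was 10.8% with a floor of 200, 20.3% at 1.5-fold and 5.62% at 4-fold. Against liver the same shares were 16.7%, 29.3% and 11.4%. The 2 members lower in the line than in the tumor were 1 with the array medians made equal, with a floor of 100, at 4-fold or without Cenpm, and 0 with a floor of 200. The 1 lower than in liver was 0 with floors of 100 and 200 and at 4-fold. Over all genes 12.8%, 9.7% and 7.89% were lower in the line than in the tumor with a floor of 100, with a floor of 200 and at 4-fold. Against liver the shares lower were 7.67%, 6% and 5.19%. The 2 members higher in HCC than in liver were 1 with the medians or the upper quartiles made equal, with a floor of 200, at 4-fold or without Cenpm, and 3 with a floor of 25. Over all genes the share higher in HCC was 20.8% with a floor of 25, 8.03% with a floor of 200 and 2.95% at 4-fold. The 0 members lower in HCC than in liver were 1, Cenpf at -1.29, with the medians made equal. Over all genes the shares higher and lower in HCC than in liver were 15.9% and 0.749% in the deposited values, 4.79% and 3.29% with quantile normalization, 2.92% and 11.6% with equal medians, 5% and 3.68% with equal upper quartiles and 5.05% and 2.55% after centring on the genes that exceeded the floor everywhere. Shares higher in Ymac-1 than in liver were 23.3% in the deposited values and 14.1% to 16.1% under these scalings. The median member difference of Ymac-1 minus HCC was 2.89 as deposited, 2.29 with a floor of 100 and 1.57 with a floor of 200. That of Ymac-1 minus liver was 3.06, 3.99 with a floor of 25, 1.57 with a floor of 200 and 2.34 after centring, and that of HCC minus liver was 0.15 and -0.51 after centring. Centring moved the 4 members at or under the floor in both tissues from 0 to -0.65. The centred median of HCC minus liver thus partly reflects members with no reading above the floor there. Since many values are bounds set by the floor, a higher floor makes the differences smaller by construction. For single members, 74 of 80 Ymac-1 minus HCC values, 75 of 80 HCC minus liver values and 76 of 80 Ymac-1 minus liver values kept their side of the threshold, and 0 of the called values changed sign. Between HCC and liver, 4 members (Cenpe, Cenph, Cenpi and Cenpn) were at or under the floor on both arrays. Their values had little room to pass the threshold, so their part of the 75 is no measure of stability. In each comparison some values could not move. The mean of the probes leaves a member with 1 probe unchanged, and the floors leave Cenpa unchanged, which exceeded each of them on all arrays. The 74, 75 and 76 thus count values that tested nothing. No paired analysis was possible because each condition has 1 array.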
